A study of Homo sapiens with 18 samples.

Results

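The genes described here are 38 human genes that work in ribosome biogenesis, from transcription of the ribosomal RNA genes by RNA polymerase I to the maturation of the small and large ribosomal subunits in the nucleolus. They were chosen by name, and each symbol was matched to its Ensembl identifier in the count tables. All 38 were found among 63677 identifiers, and 37 of them were among the 15179 genes with enough reads to test. The remaining member, BOP1, a large subunit assembly factor, had 0 reads in all 18 libraries under the identifier that the name table gives it; whether its reads were assigned to another identifier was not tested.

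RNA polymerase I transcribes a long precursor that is cut, chemically modified and folded into the RNAs of both subunits. Small nucleolar RNA-protein complexes (snoRNPs) guide the modifications, the small subunit processome assembles on the front part of the precursor, and a separate set of factors matures the large subunit. The whole pathway consumes much of a growing cell's resources, and MYC and the TOR kinase are textbook activators of it.

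Poly(A)-selected RNA was sequenced from HAP1 cells, a human line with close to a single set of chromosomes that descends from a chronic myeloid leukaemia. The 6 groups of 3 libraries each crossed 3 lines with 2 media, and each line stands for 1 genotype. ATG7KO cells are labelled as lacking ATG7, an enzyme that activates ATG8-family proteins for their attachment to lipid in autophagy. RB1CC1KO cells are labelled as lacking RB1CC1 (FIP200), a scaffold of the kinase complex that starts autophagy. The WT line is the parental one. Each line was kept in full medium with serum or was placed for 6 h in EBSS, a salt and glucose solution without amino acids or serum. The groups are therefore ATG7KO in EBSS, RB1CC1KO in EBSS, WT in EBSS, ATG7KO in full medium, RB1CC1KO in full medium and WT in full medium. The 3 libraries of a group are described as independent biological replicates of the same line, so no comparison between lines has more than 1 line per genotype. Whether other lines of the same genotypes would differ in the same way was not tested.

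Reads in genes were between 11994110 and 19073798 in 16 libraries, 4892072 in ATG7KO EBSS replicate 3 and 26005942 in RB1CC1KO EBSS replicate 2. ATG7 had 4.02 ± 0.436 CPM (read counts scaled to a common library total; mean ± SD, n = 3) in ATG7KO and 15.6 ± 1.3 in WT in full medium (log2 difference -1.95 ± 0.12, adjusted p = 8.81e-15 by edgeR's quasi-likelihood test with Benjamini-Hochberg adjustment over all genes tested, as for every adjusted p here). In EBSS the gap was smaller, with 10.4 ± 0.533 CPM in ATG7KO and 16.1 ± 1.68 CPM in WT (log2 difference -0.62 ± 0.12, adjusted p = 0.000149). RB1CC1 was not lower in RB1CC1KO, with 157 ± 12.7 CPM in RB1CC1KO and 105 ± 10.3 CPM in WT in full medium (log2 difference 0.58 ± 0.07, adjusted p = 8.3e-08). The RNA therefore does not check that label, and those libraries are called RB1CC1KO as labelled. EBSS and full-medium libraries also differed throughout in the mitochondrially encoded share of reads, at 1.41% to 2.36% in EBSS and 3.24% to 4.26% in full medium, and in the trimmed-mean (TMM) scaling factors, at 0.909 to 0.964 in EBSS and 1.031 to 1.089 in full medium; the part of either in the results was not tested.

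Markers of cell types moved with medium and line as well. Of 18 blood, epithelial and mesenchymal markers, 10 had enough reads to test; PTPRC, CD34, SPN, GATA1, CDH1, COL1A2 and DCN had too few reads, and GATA1 and DCN were at 0 in every library. The 8 blood markers summed to 6.15 to 8.6 CPM over the libraries of ATG7KO in EBSS and 20 to 20.7 in ATG7KO in full medium, 27.7 to 29.7 in RB1CC1KO in EBSS and 71 to 78.7 in RB1CC1KO in full medium, and 27.8 to 32.8 in WT in EBSS and 57.6 to 68.3 in WT in full medium. TAL1, a blood transcription factor, was among the markers called lower in EBSS, with log2 fold changes of -2.79 in ATG7KO, -1.81 in RB1CC1KO and -1.11 in WT. The 4 epithelial markers summed to 51.1 to 58 CPM in ATG7KO in EBSS and 54.8 to 57.9 in ATG7KO in full medium, 85.2 to 95.6 in RB1CC1KO in EBSS and 71.8 to 81.6 in RB1CC1KO in full medium, and 102 to 107 in WT in EBSS and 87.8 to 98.8 in WT in full medium. VIM, the abundant mesenchymal marker, was higher in EBSS at 0.65 in ATG7KO, 0.98 in RB1CC1KO and 0.82 in WT (log2). It does not stand for its list, because COL1A1, THY1 and PDGFRB, the other mesenchymal markers tested, had lower means in EBSS in each line. COL1A1 had 16.8 CPM in EBSS and 20.2 in full medium in ATG7KO, 13.6 and 18.7 in RB1CC1KO, and 16.8 and 23.3 in WT. THY1 and PDGFRB had few reads. The part of these shifts in the members' values was not tested.

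Many of these promoters hold CACGTG, the E-box bound by MYC and its partner MAX, and by the MXD repressors that also pair with MAX. Of the 38 members, 32 had an entry in the RefSeq promoter table (250 bases before to 50 after each start, GRCh38.p14), and 13 of those 32, or 40.6%, held CACGTG. The motif reads the same on both strands. It was present in 27.6% of 145 other genes of the pathway, in 12.6% of 11025 tested genes with an entry and in 8.77% of all 27305 genes of that table. Windows of 30 bases from 9 members are given to show this shared element in genes of different roles and different responses to EBSS, with the motif in capitals. The first 5 belong to members lower in WT cells in EBSS, the next pair (FBL, WDR43) to members that did not pass the test, and the last pair (UTP4, NOP14) to members called higher. The NOP14 call was lost with upper-quartile scaling or none.
MYBBP1A (chr17:4555340-4555369, minus strand): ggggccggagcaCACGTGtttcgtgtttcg
NOC3L (chr10:94362903-94362932, minus strand): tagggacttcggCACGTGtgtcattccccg
LYAR (chr4:4290068-4290097, minus strand): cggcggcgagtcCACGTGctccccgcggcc
RRP9 (chr3:51941892-51941921, minus strand): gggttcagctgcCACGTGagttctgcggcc
PES1 (chr22:30591880-30591909, minus strand): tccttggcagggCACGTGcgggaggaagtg
FBL (chr19:39846356-39846385, minus strand): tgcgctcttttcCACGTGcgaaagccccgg
WDR43 (chr2:28894658-28894687, plus strand): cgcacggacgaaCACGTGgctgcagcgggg
UTP4 (chr16:69132621-69132650, plus strand): agagcgcgcgcgCACGTGgggccggggcgg
NOP14 (chr4:2963374-2963403, minus strand): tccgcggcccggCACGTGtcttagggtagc
The motif's first base lay within 64 bases of the annotated start in all 9, counted along the gene's own strand. A match describes these letters only, and binding was not measured. The other motifs searched on both strands were TCGCGA, present in 15.6% of the 32 members and 6.96% of tested genes, and GCATGC, present in 9.38% of members and 11.3% of tested genes. The median log2 fold change in WT was -0.18 over the 13 members with CACGTG and -0.48 over the 19 without it.

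Levels in WT cells in full medium spread widely among the members. Per kilobase of merged exons, NCL (nucleolin) stood at 334 ± 28 and NPM1 (nucleophosmin) at 287 ± 25.1 CPM per kb (SD, n = 3), and the ranges of these abundant nucleolar proteins over the 3 libraries overlapped slightly. FBL, the fibrillarin methyltransferase of box C/D snoRNPs, at 127 ± 2, and NOLC1, a chaperone of snoRNPs, at 126 ± 8.57 CPM per kb, came next and did not differ beyond their spread. The H/ACA pseudouridine synthase DKC1 stood at 80.1 ± 5.21 CPM per kb. At the low end were UTP20 at 12.1 ± 1.16, WDR12 at 10 ± 0.372 and POLR1C, a subunit shared by RNA polymerases I and III, at 6.15 ± 0.235 CPM per kb. As a group the members were well expressed: their median level was 7.05 on the log2 CPM scale (37 genes, 4.74 to 11.15), against 4.41 over all genes tested.

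After 6 h in EBSS most members were lower. In ATG7KO, 21 of 37 members were lower and 4 higher, where 30.6% of all genes tested were called lower and 32.3% higher. In RB1CC1KO, 20 were lower and 5 higher, against 33.3% and 31.9% of all genes tested. In WT, 24 of 37 members, or 64.9%, were lower and 4 higher, against 32.1% and 32.4% of all genes tested. The members' median log2 fold change was -0.23 in ATG7KO, -0.21 in RB1CC1KO and -0.28 in WT, while the median over all genes tested was -0.01, -0.03 and -0.02 in the same lines. Among the 6892 genes at or above the level of the lowest member, 24.8% were lower and 45.7% higher in ATG7KO, 26.8% and 44.9% in RB1CC1KO, and 25.8% and 45.6% in WT. The 3 EBSS comparisons share no libraries. In all 3 lines, 19 members were called lower (against 23.3% of all genes tested) and 3 were called higher (against 25.2%).

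The values depend on how libraries were scaled. With upper-quartile scaling or none, the median of all genes in the WT comparison moved to -0.17 or -0.18, the members' median to -0.44 under both, and 32 members were lower and 1 higher under both. The members' median was thus below that of all genes under each of these scalings. CPM give each gene's share of the RNA sequenced, and in bulk samples fewer cells of a kind and less RNA per cell cannot be told apart.

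**Figure D1:**
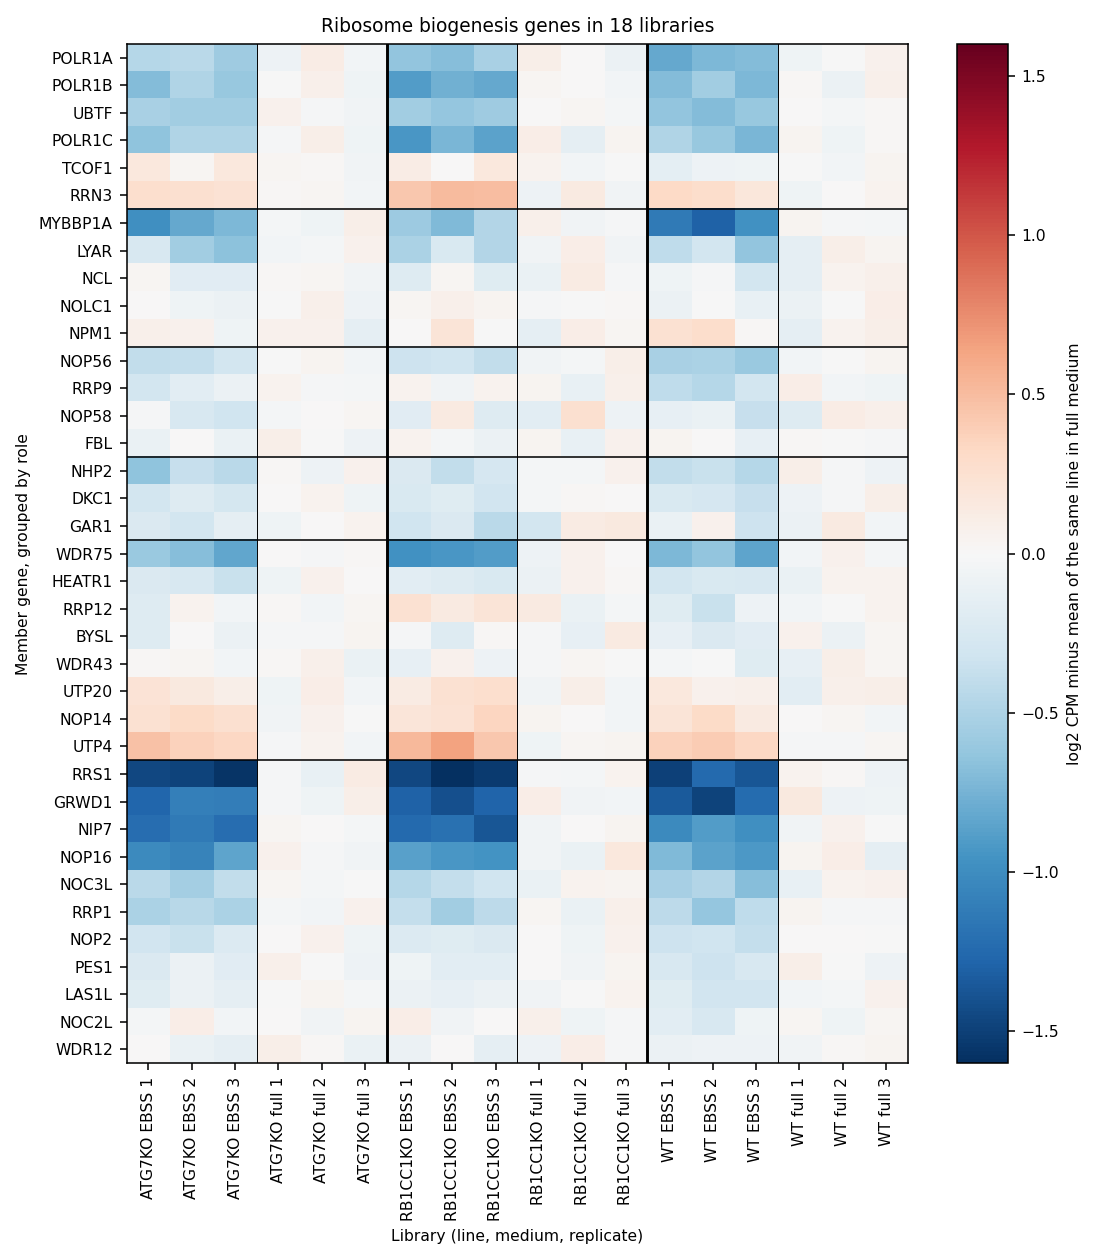
Log2 CPM of the 37 members with reads in each of the 18 libraries, after subtracting the mean of the same line in full medium (colour scale, log2 units); columns are libraries by line, medium and replicate, and rows are genes grouped by role with lines between roles. RRS1, GRWD1, NIP7 and NOP16 are dark blue rows in the EBSS columns of each line. MYBBP1A is blue in those columns too, and paler in RB1CC1KO than in ATG7KO and WT. UTP4, NOP14 and RRN3 are red in the EBSS columns (TMM scaling). With upper-quartile scaling or none, the NOP14 calls and the ATG7KO and WT calls of RRN3 were lost.

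Within RNA polymerase I transcription, the subunits POLR1A, POLR1B and POLR1C and the DNA-binding factor UBTF were lower in EBSS. RRN3, the factor that starts it, was higher. The enzyme's other subunits are not members. In each of the 3 lines, 4 of 6 members were lower and 1 higher. These shares, 66.7% lower and 16.7% higher, stand beside 30.6% and 32.3% of all genes tested in ATG7KO. The shares of all genes tested were 33.3% and 31.9% in RB1CC1KO, and 32.1% and 32.4% in WT. POLR1A, the largest and catalytic subunit, had 135, 138 and 125 CPM in ATG7KO EBSS libraries, against 175, 202 and 180 CPM in ATG7KO full-medium libraries. It had 135, 130 and 146 CPM in RB1CC1KO EBSS libraries, against 222, 210 and 195 CPM in RB1CC1KO full-medium libraries. It had 112, 120 and 122 CPM in WT EBSS libraries, against 188, 196 and 207 CPM in WT full-medium libraries. All EBSS libraries lay below all full-medium libraries of the same line, with log2 fold changes of -0.48 ± 0.07 in ATG7KO, -0.61 ± 0.07 in RB1CC1KO and -0.74 ± 0.07 in WT (adjusted p = 1.33e-07, 4.54e-10 and 7.04e-12). POLR1B, the second-largest subunit, was lower, at -0.59, -0.83 and -0.65 (log2 fold change, SE 0.07 in each line), in ATG7KO, RB1CC1KO and WT, the order in which any 3 log2 fold changes are given from here. POLR1C was lower, at -0.55, -0.84 and -0.60, and 18.2% of its exon bases lie opposite exons of genes on the other strand. UBTF, which binds the ribosomal RNA gene and its promoter, was lower, at -0.55, -0.58 and -0.64, with less spread between lines than the polymerase subunits.

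RRN3 (TIF-IA) links the polymerase to its promoter-bound factors and is a known target of growth signalling. It had 94.7, 94.4 and 92.5 CPM in ATG7KO EBSS libraries, against 79.5, 80.2 and 76.6 CPM in ATG7KO full-medium libraries. RB1CC1KO cells had 103, 109 and 108 CPM in EBSS, against 72.5, 84.6 and 73.5 CPM in full medium. In WT it had 94.8, 93 and 86.7 CPM in EBSS, against 72.9, 76.5 and 79.5 CPM in full medium. The groups did not overlap in any line, and RRN3 was higher in EBSS by 0.25 ± 0.07 in ATG7KO, 0.47 ± 0.06 in RB1CC1KO and 0.26 ± 0.06 in WT (log2 fold change). With upper-quartile scaling or no scaling factors the calls in ATG7KO and WT were lost. RRN3 has 2 named pseudogenes, and reads may be split between copies. TCOF1 (treacle), a nucleolar scaffold of polymerase I transcription, did not pass the test in any line, with log2 fold changes of 0.12 ± 0.06 in ATG7KO, 0.09 ± 0.06 in RB1CC1KO and -0.10 ± 0.06 in WT.

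Of the 5 nucleolar phosphoproteins and related chaperones, MYBBP1A and LYAR were lower in each line, and NCL, NOLC1 and NPM1, the abundant ones, moved little. Those lower were 40% in each line, against 30.6%, 33.3% and 32.1% of all genes tested. Those higher were 0%, 0% and 20%, against 32.3%, 31.9% and 32.4%. MYBBP1A, a nucleolar protein that associates with polymerase I, had 129, 144 and 154 CPM in ATG7KO EBSS libraries, against 250, 243 and 271 CPM in ATG7KO full-medium libraries. RB1CC1KO had 172, 157 and 185 CPM in EBSS, against 271, 247 and 253 CPM in full medium. WT had 133, 119 and 149 CPM in EBSS, against 300, 288 and 285 CPM in full medium. The groups stood well apart in all lines, with log2 fold changes of -0.85 ± 0.07, -0.59 ± 0.07 and -1.12 ± 0.07. LYAR, a nucleolar zinc-finger protein, was lower, at -0.46, -0.40 and -0.44 (log2). NPM1, a histone chaperone of the nucleolus, had 1300, 1330 and 1110 CPM in WT EBSS libraries, against 989, 1140 and 1170 CPM in WT full-medium libraries. These groups overlapped, the log2 fold change of 0.18 ± 0.08 passed only narrowly (adjusted p = 0.0497), and the call was lost under most alternatives, including upper-quartile scaling and DESeq2's size factors. NPM1 also has 45 named pseudogenes. NCL had log2 fold changes of -0.11 ± 0.08 in ATG7KO, -0.13 ± 0.08 in RB1CC1KO and -0.13 ± 0.08 in WT, and NOLC1 had -0.05 ± 0.06, 0.05 ± 0.06 and -0.08 ± 0.06; neither passed the test.

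NCL and NPM1 supplied a large share of the members' reads, so sums were taken with and without them. Together NCL and NPM1 made up 3210 ± 219 CPM in ATG7KO EBSS and 3350 ± 173 in ATG7KO full medium, 3850 ± 355 in RB1CC1KO EBSS and 4000 ± 330 in RB1CC1KO full medium, and 3360 ± 325 in WT EBSS and 3410 ± 288 in WT full medium (SD, n = 3 each). The other members summed to 4730 ± 56 CPM in ATG7KO EBSS and 5470 ± 88.8 in ATG7KO full medium, 5220 ± 18.1 in RB1CC1KO EBSS and 5860 ± 31.3 in RB1CC1KO full medium, and 4680 ± 61 in WT EBSS and 5730 ± 109 in WT full medium. The first sum differed by less than its spread in each line and the second by several times its spread.

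The snoRNP proteins responded unevenly. Box C/D snoRNPs mainly direct ribose methylation, with FBL as the methyltransferase, whereas RRP9 is specific to the U3 snoRNP. Among the 4 box C/D members, 2 were lower in ATG7KO, 1 in RB1CC1KO and 2 in WT, and none was higher. Those lower were 50%, 25% and 50%, against 30.6%, 33.3% and 32.1% of all genes tested, so the RB1CC1KO share was below that of all genes. Of all genes tested, 32.3%, 31.9% and 32.4% were higher. NOP56, a core protein, had 210, 212 and 226 CPM in ATG7KO EBSS libraries, against 276, 286 and 269 CPM in ATG7KO full-medium libraries. In RB1CC1KO it had 236, 238 and 226 CPM in EBSS, against 287, 290 and 316 CPM in full medium, and in WT 202, 204 and 192 CPM in EBSS, against 282, 289 and 300 CPM in full medium. No EBSS library reached its line's full-medium range, and the log2 fold changes were -0.36 ± 0.06, -0.35 ± 0.06 and -0.54 ± 0.06. NOP58, the partner of NOP56 in the same core, varied more between replicates and passed in no line (-0.18 ± 0.13, -0.08 ± 0.12 and -0.21 ± 0.13). FBL, the methyltransferase, had log2 fold changes of -0.07 ± 0.06, -0.02 ± 0.06 and -0.02 ± 0.06 and passed in none either. NOP56 holds 5 small nucleolar RNA genes within its span and NOP58 holds 4.

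Of the 3 box H/ACA proteins, which carry out pseudouridylation, 2 were lower in ATG7KO, 3 in RB1CC1KO and 2 in WT, and none was higher. Those lower were 66.7%, 100% and 66.7%, against 30.6%, 33.3% and 32.1% of all genes tested. Of all genes tested, 32.3%, 31.9% and 32.4% were higher. NHP2, an RNA-binding core protein, was lower, at -0.48 in ATG7KO, -0.30 in RB1CC1KO and -0.41 in WT. DKC1 (dyskerin), the enzyme, was lower, at -0.26, -0.24 and -0.29. GAR1 passed in RB1CC1KO (-0.33 ± 0.10, adjusted p = 0.00448) and not in ATG7KO (-0.23 ± 0.11, adjusted p = 0.0573) or WT (-0.12 ± 0.10, adjusted p = 0.302); the GAR1 call was lost without RB1CC1KO full-medium replicate 3.

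**Figure D2:**
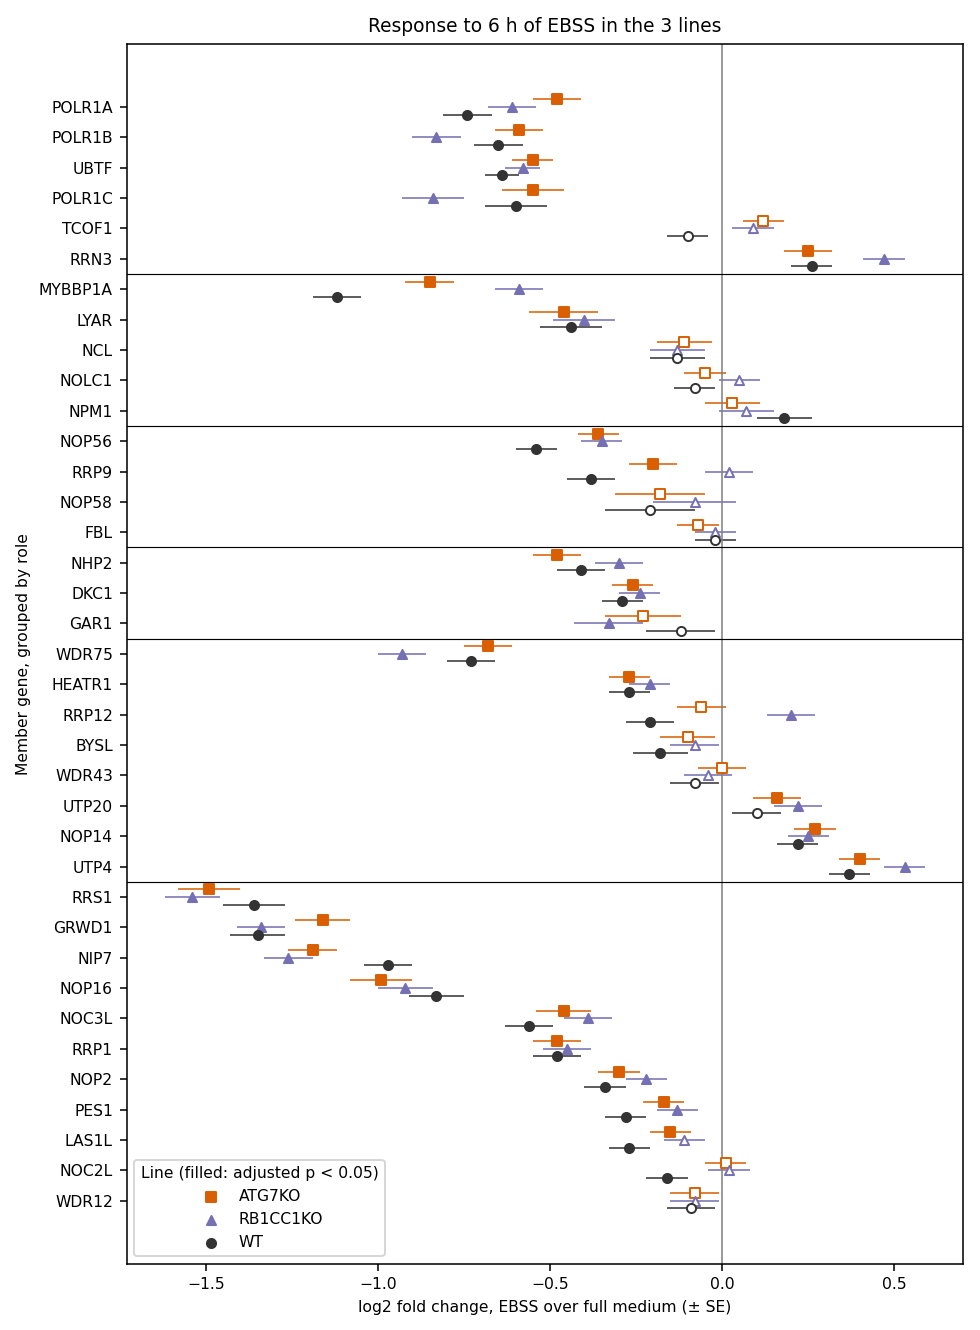
Log2 fold change of EBSS over full medium (x axis) for each member (y axis, grouped by role) in ATG7KO, RB1CC1KO and WT; points are fitted values, bars are ± SE, and filled points passed an adjusted p of 0.05. The large subunit factors at the bottom run from RRS1 (-1.36 in WT) to WDR12 (-0.09 in WT). The few points right of 0 are mainly RRN3, UTP20, NOP14 and UTP4, with NPM1 called in WT only and RRP12 called higher in RB1CC1KO only. Under 2 other scalings (upper quartile and none), RRN3 and NOP14 lost their WT calls and UTP20 lost its ATG7KO and RB1CC1KO calls. RRP12 lost its RB1CC1KO call under both as well. UTP20 was not called in WT, and the NPM1 call was lost under most alternatives.

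Factors of the small subunit processome and 40S maturation went in both directions. Of 8, 2 were lower and 3 higher in ATG7KO, 2 lower and 4 higher in RB1CC1KO, and 4 lower and 2 higher in WT. These shares, 25% lower and 37.5% higher in ATG7KO, 25% and 50% in RB1CC1KO, and 50% and 25% in WT, stand beside 30.6% and 32.3%, 33.3% and 31.9%, and 32.1% and 32.4% of all genes tested. WDR75 and HEATR1 (human UTP17 and UTP10) and UTP4 (cirhin) belong, with WDR43, to the UTPA subcomplex that binds the front of the precursor, and they parted ways. WDR75 had 71.1, 66.6 and 60 CPM in ATG7KO EBSS libraries, against 107, 106 and 108 CPM in ATG7KO full-medium libraries. It had 56.4, 57.8 and 59.3 CPM in RB1CC1KO EBSS libraries, against 104, 116 and 111 CPM in RB1CC1KO full-medium libraries, and 65.5, 69.6 and 60.4 CPM in WT EBSS libraries, against 105, 114 and 106 CPM in WT full-medium libraries. Every EBSS library was far below, with log2 fold changes of -0.68 ± 0.07, -0.93 ± 0.07 and -0.73 ± 0.07. UTP4 had 170, 159 and 154 CPM in ATG7KO EBSS libraries, against 121, 128 and 119 CPM in ATG7KO full-medium libraries. In RB1CC1KO it had 168, 182 and 157 CPM in EBSS, against 111, 119 and 121 CPM in full medium, and in WT 161, 165 and 157 CPM in EBSS, against 123, 123 and 127 CPM in full medium. Every EBSS library was above, by 0.40 ± 0.06, 0.53 ± 0.06 and 0.37 ± 0.06 (log2), and UTP4 kept its call in the 3 lines under both other scalings.

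The rest of the small subunit group moved less. HEATR1 was lower, at -0.27, -0.21 and -0.27 (log2), and WDR43 did not pass in any line. NOP14, a processome protein, was higher by 0.27, 0.25 and 0.22, but its calls were lost in all 3 lines with upper-quartile scaling or none, and 17.1% of its exon bases lie opposite an antisense gene. UTP20, a large processome scaffold, was higher in ATG7KO (0.16 ± 0.07, adjusted p = 0.0412) and RB1CC1KO (0.22 ± 0.07, adjusted p = 0.00416), whereas its WT value missed the threshold (0.10 ± 0.07, adjusted p = 0.214); both calls were lost with upper-quartile scaling or none, where the ATG7KO value turned to 0 or -0.01. BYSL (bystin), a 40S maturation factor, passed only in WT (-0.18 ± 0.08, adjusted p = 0.0349), a call that was lost on leaving out any of 4 of the WT libraries; its difference between lines was not called either (log2 difference of the RB1CC1KO and WT responses 0.11 ± 0.11, adjusted p = 0.61). RRP12, a 40S export factor, is described with the RB1CC1KO comparison.

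The large subunit and 60S maturation factors were mostly lower: 9 of the 11 tested were lower in ATG7KO, 8 in RB1CC1KO and 10 in WT, and none was higher in any line. Those lower were 81.8%, 72.7% and 90.9%, against 30.6%, 33.3% and 32.1% of all genes tested. Of all genes tested, 32.3%, 31.9% and 32.4% were higher. RRS1, which acts in the incorporation of the 5S ribonucleoprotein, had 17.6, 17.3 and 16.3 CPM in ATG7KO EBSS libraries, against 47.7, 44.4 and 52.8 CPM in ATG7KO full-medium libraries. In RB1CC1KO it had 19.2, 17.1 and 18.1 CPM in EBSS, against 51.8, 51.4 and 54.4 CPM in full medium, and in WT 16.7, 19.9 and 18.3 CPM in EBSS, against 49, 47.9 and 44.7 CPM in full medium. All EBSS libraries had less than all full-medium libraries by a wide gap, and the log2 fold changes of -1.49 ± 0.09, -1.54 ± 0.08 and -1.36 ± 0.09 were the lowest fitted values among the members, although in WT GRWD1 lay within the SE of RRS1 (adjusted p = 2.38e-16, 8.79e-18 and 5.87e-16). GRWD1, a chaperone of ribosomal protein and histones, had 48.1, 54.3 and 53.5 CPM in ATG7KO EBSS libraries, against 114, 110 and 123 CPM in ATG7KO full-medium libraries. In RB1CC1KO it had 50.4, 46.8 and 50.8 CPM in EBSS, against 133, 119 and 120 CPM in full medium, and in WT 48.5, 44.2 and 52.2 CPM in EBSS, against 137, 116 and 117 CPM in full medium. The ranges were again far apart, with log2 fold changes of -1.16 ± 0.08, -1.34 ± 0.07 and -1.35 ± 0.08.

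NIP7, a 60S biogenesis factor, had 32.5, 34.6 and 32.7 CPM in ATG7KO EBSS libraries, against 77.5, 76 and 74.2 CPM in ATG7KO full-medium libraries. In RB1CC1KO it had 29.5, 30.5 and 27.1 CPM in EBSS, against 67.3, 70.3 and 71.9 CPM in full medium, and in WT 36.1, 39.4 and 37 CPM in EBSS, against 70.4, 76.9 and 72.8 CPM in full medium. There was no overlap in any line (log2 fold change -1.19 ± 0.07, -1.26 ± 0.07 and -0.97 ± 0.07), though 20.2% of the exon bases of NIP7 lie opposite another gene. NOP16, a nucleolar 60S factor, was lower, at -0.99, -0.92 and -0.83. NOC3L was lower, at -0.46, -0.39 and -0.56, RRP1, at -0.48, -0.45 and -0.48, and NOP2, which methylates the large ribosomal RNA, at -0.30, -0.22 and -0.34.

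PES1 and WDR12 belong with BOP1 to a complex that processes the large subunit precursor, and LAS1L is an endonuclease of the same pathway. PES1 was lower, at -0.17, -0.13 and -0.28 (log2), the RB1CC1KO value passing narrowly (adjusted p = 0.0474) and losing its call under several alternatives. WDR12 did not pass in any line (-0.08 ± 0.07, -0.08 ± 0.07 and -0.09 ± 0.07). LAS1L was lower in ATG7KO (-0.15 ± 0.06, adjusted p = 0.0255) and WT (-0.27 ± 0.06, adjusted p = 7.16e-05), and did not pass in RB1CC1KO (-0.11 ± 0.06, adjusted p = 0.0895). NOC2L passed only in WT (-0.16 ± 0.06, adjusted p = 0.0197), where the call was lost without WT full-medium replicate 1 or EBSS replicate 2; its values were 0.01 ± 0.06 in ATG7KO and 0.02 ± 0.06 in RB1CC1KO, and neither difference from the WT response was called.

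**Figure D3:**
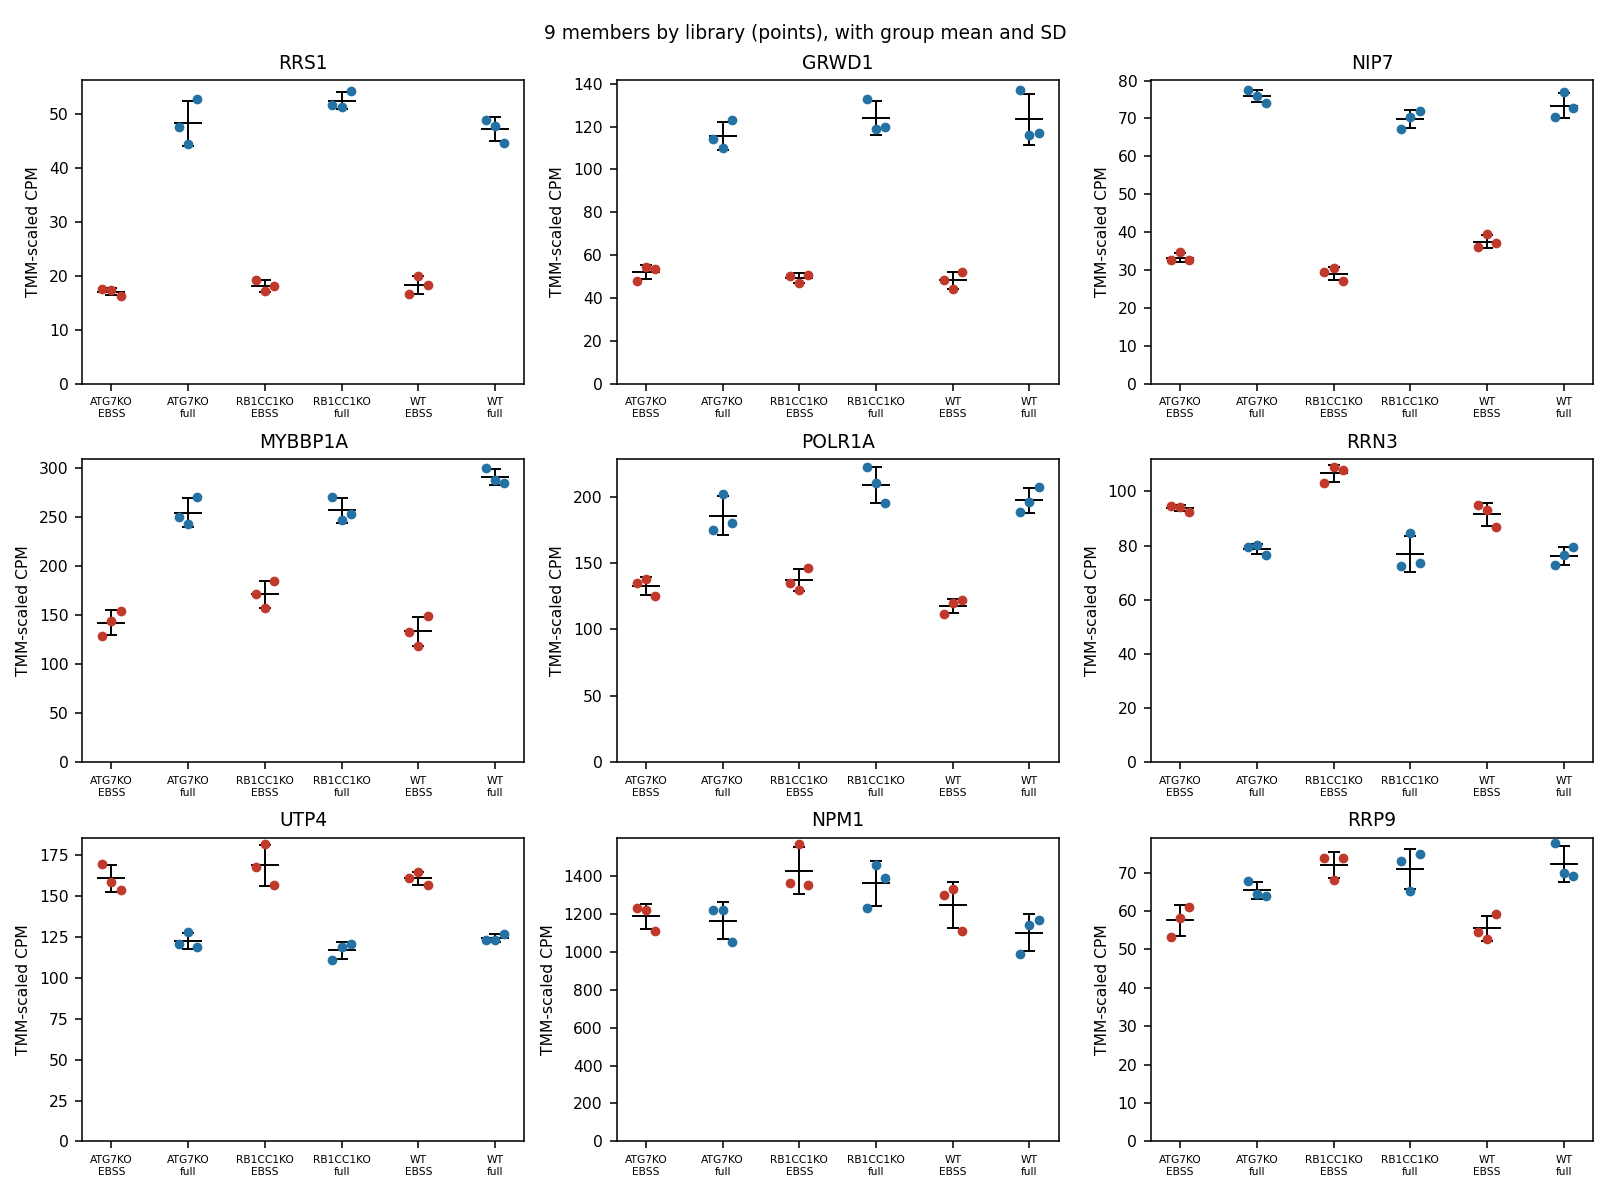
TMM-scaled CPM (y axis, from 0) of 9 members in each library (points; red for EBSS, blue for full medium), by line and medium (x axis), with the group mean (long bar) and SD (short bars, n = 3). In RRS1, GRWD1, NIP7, MYBBP1A and POLR1A the EBSS points lie below the full-medium points of the same line, in RRN3 and UTP4 above, and in NPM1 they overlap; RRP9 is separated in ATG7KO and WT and overlaps in RB1CC1KO.

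Several of the members lowest in EBSS had few exons, a feature the choice of genes did not use. RRS1 has 1 merged exon, NIP7 has 3, NOP16 5 and GRWD1 6, though MYBBP1A has 23, while UTP20 has 62, HEATR1 45 and RRP12 39. Across the 37 members the log2 fold change in EBSS and the log2 number of merged exons had a Pearson r of 0.61 in ATG7KO, 0.57 in RB1CC1KO and 0.47 in WT, and a Spearman rho of 0.36, 0.37 and 0.25. Without RRS1, r was 0.47, 0.43 and 0.32 over 36 genes, and rho was 0.3, 0.32 and 0.18. The genes share libraries and the lines share the genes, so these are descriptions of one set of genes. Over 14806 tested genes with an annotated exon count the same rho was 0.26 in ATG7KO, 0.26 in RB1CC1KO and 0.21 in WT, and r was 0.18, 0.19 and 0.14. The members' rho without RRS1 was thus near that of all genes, and below it in WT. Their r without RRS1 was above that of all genes in each line. Merged exon length had a rho of 0.04, 0 and -0.06 over the members. Their CPM in full medium, which also enters the fold change, had a rho of 0.39, 0.35 and 0.32. Some members share exon bases with a gene on the opposite strand, up to 27.4% in NHP2 and 23.2% in HEATR1, and the counting's strand setting is not given in the sources used here, so such reads cannot be told apart.

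Genes of the same pathway that are not members were counted as well. Of 168 tested, 89 were lower and 37 higher in ATG7KO, 89 lower and 35 higher in RB1CC1KO, and 92 lower and 31 higher in WT, with median log2 fold changes of -0.22, -0.24 and -0.26. That is 53% lower and 22% higher in ATG7KO, 53% and 20.8% in RB1CC1KO, and 54.8% and 18.5% in WT, against 30.6% and 32.3%, 33.3% and 31.9%, and 32.1% and 32.4% of all genes tested. The genes named below have the smallest p of their list in WT and do not stand for the list. The WT medians (log2) were -0.41 for the other polymerase I genes and -0.36 for the small subunit genes. They were -0.2 for the large subunit genes and -0.29 for the snoRNP genes. In WT, 12 of 16 other polymerase I genes were lower and 3 higher. The polymerase subunit POLR1G was lower, at -2.05 in ATG7KO, -2.35 in RB1CC1KO and -1.98 in WT, beyond any member. TAF1C, a subunit of the promoter selectivity factor, was lower, at -0.77, -0.70 and -0.88, and POLR1F, at -0.51, -0.71 and -0.64. Among 45 other small subunit genes in WT, 26 were lower and 7 higher, with NOL6 at -1.96 ± 0.08, NOP9 at -1.12 ± 0.07 and the acetyltransferase NAT10 at -0.90 ± 0.05. Among 54 other large subunit genes in WT, 27 were lower and 9 higher. There, SURF6 was at -1.63 ± 0.09 and MRTO4 at -0.94 ± 0.06, whereas RSL24D1, a 60S assembly factor, was higher, at 1.25 ± 0.07 in ATG7KO, 1.41 ± 0.07 in RB1CC1KO and 1.41 ± 0.07 in WT. Of 10 other snoRNP genes in WT, 6 were lower and 1 higher; the assembly factors ZNHIT6 and RUVBL2 were at -0.57 ± 0.09 and -0.49 ± 0.08, and RPAP3 was higher, at 0.61 ± 0.08.

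**Figure D4:**
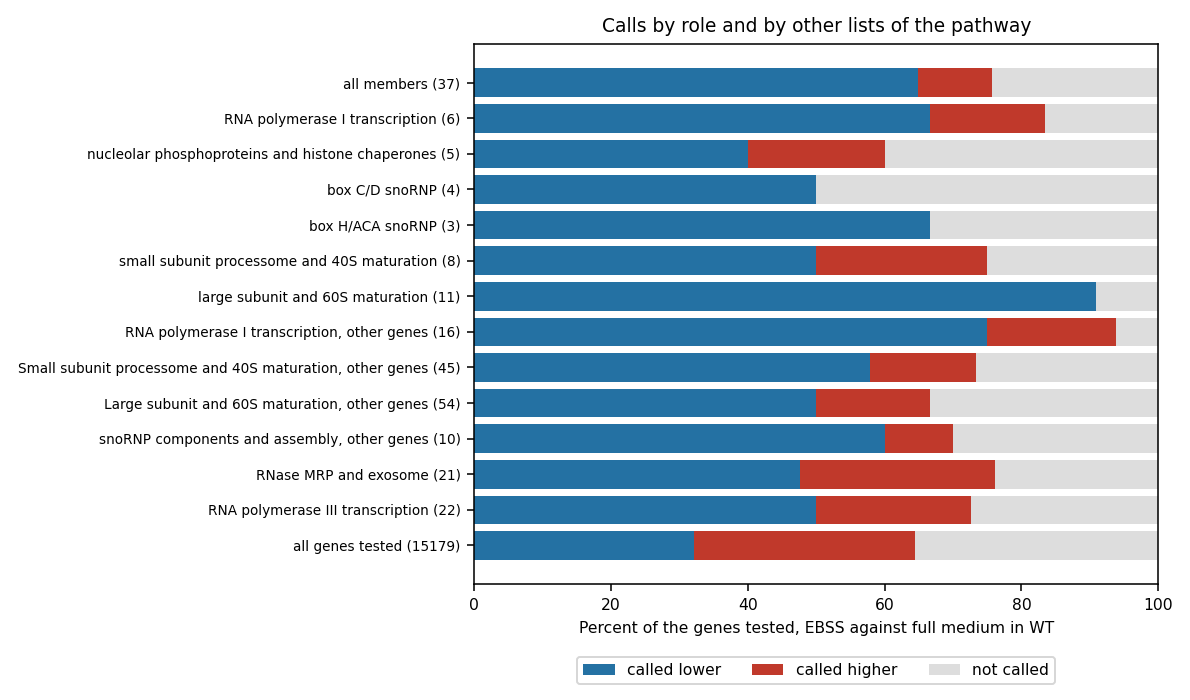
Share of tested genes (x axis, percent) called lower (blue), called higher (red) or not called (grey) in WT in EBSS against full medium, for the members, their role groups, other lists of the pathway and all genes tested (number tested in brackets). Lower calls make up 64.9% of the members and 90.9% of the large subunit members, against 32.1% of all genes tested.

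The transcription factors that read the E-box changed in EBSS as well. MAX, the shared partner, had 245, 224 and 210 CPM in ATG7KO EBSS libraries, against 61.9, 53.2 and 58.9 CPM in ATG7KO full-medium libraries. It had 319, 313 and 305 CPM in RB1CC1KO EBSS libraries, against 80.1, 79.6 and 76.8 CPM in RB1CC1KO full-medium libraries, and 269, 291 and 268 CPM in WT EBSS libraries, against 74.8, 70.1 and 64.6 CPM in WT full-medium libraries. The groups were far apart, at log2 fold changes of 1.97 ± 0.07, 1.99 ± 0.07 and 1.98 ± 0.07. The MAX-binding repressors MXD1 (1.94, 2.26 and 1.94), MXI1 (1.08, 1.13 and 0.92) and MNT (1.00, 0.97 and 1.01) were higher too, while MYC was lower, at -0.23, -0.18 and -0.23 (log2). The MYC calls in ATG7KO and RB1CC1KO were lost without some single libraries. No protein or binding was measured, and any part of these genes in the members' values was not tested.

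In full medium, the knockout lines differed from WT in few members. Between ATG7KO and WT, 0 members were higher and 3 lower, against 4.47% and 6.07% of all genes tested; 1 member was higher and 5 lower at an unadjusted p under 0.05, and DESeq2 called 0 and 4. TCOF1 had 301, 298 and 283 CPM in ATG7KO libraries, against 360, 350 and 373 CPM in WT libraries. The ranges did not overlap, and the log2 difference was -0.30 ± 0.06 (adjusted p = 0.000315). NOC2L (-0.19 ± 0.06, adjusted p = 0.0357) and NOP2 (-0.18 ± 0.06, adjusted p = 0.0417) passed narrowly and lost their calls with other scalings and on leaving out single libraries. Between RB1CC1KO and WT, 2 members were higher and 0 lower, against 8.3% and 8.87% of all genes tested; 7 were higher and 1 lower at an unadjusted p under 0.05, and DESeq2 called 2 and 0. NPM1 (0.31 ± 0.08, adjusted p = 0.00767) lost its call without WT replicate 1 or without RB1CC1KO replicate 2 or 3. NHP2 (0.23 ± 0.07, adjusted p = 0.0191) lost it without WT replicate 2 or 3, without RB1CC1KO replicate 3, or with no scaling factors.

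In EBSS, RB1CC1KO and WT differed in many more members. Of 37, 15 were higher and 1 lower in RB1CC1KO, against 14.8% and 16.9% of all genes tested, with a median log2 difference of 0.15 over the members and 0.00 over all genes tested. With no scaling factors these counts were 8 and 3, and the count of lower members was 3 without WT EBSS replicate 3 and 2 without RB1CC1KO EBSS replicate 2. The higher members came from every role: RRP9 and NOP56 of the box C/D snoRNP, NHP2 of the box H/ACA snoRNP, NOLC1 and MYBBP1A of the nucleolar proteins, POLR1A and RRN3 of polymerase I transcription, RRP12, BYSL, WDR43, UTP20 and NOP14 of the small subunit and LAS1L, PES1 and NOC2L of the large subunit. The differences were small, at 0.17 to 0.37 on the log2 scale. The calls of RRP9, NOP56, NHP2, NOLC1, MYBBP1A, RRN3, RRP12 and LAS1L, and of the lower member NIP7, were kept in every alternative run, while those of the other seven were lost with no scaling factors and without 1 or more single libraries. NOLC1 had 563, 586 and 570 CPM in RB1CC1KO EBSS libraries, against 466, 495 and 460 CPM in WT EBSS libraries, without overlap (log2 difference 0.27 ± 0.06, adjusted p = 0.000332). LAS1L had 203, 198 and 204 CPM in RB1CC1KO EBSS libraries, against 178, 164 and 164 CPM in WT EBSS libraries (0.26 ± 0.06, adjusted p = 0.000486). NIP7 was the member that was lower, with 29.5, 30.5 and 27.1 CPM in RB1CC1KO EBSS libraries, against 36.1, 39.4 and 37 CPM in WT EBSS libraries (-0.36 ± 0.07, adjusted p = 0.000152). Of the 168 other pathway genes, 43 were higher and 9 lower in RB1CC1KO. Between ATG7KO and WT in EBSS, 1 member was higher and 0 lower, against 6.07% and 7.17% of all genes tested; 3 and 2 passed an unadjusted p under 0.05, and DESeq2 called 0 in each direction. That member, NOC3L (0.23 ± 0.08, adjusted p = 0.0485), lost its call under most alternatives.

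**Figure D5:**
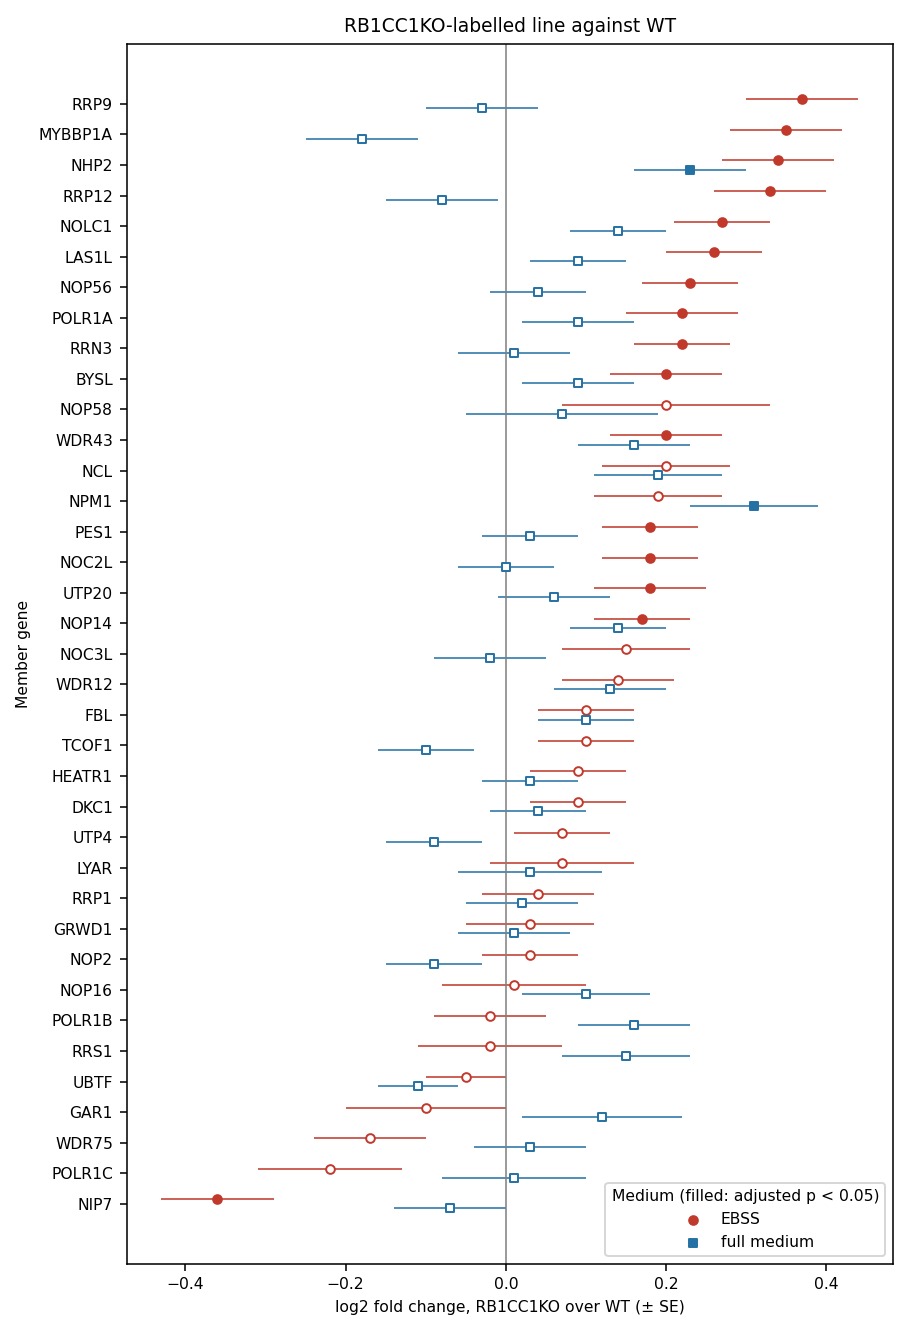
Log2 fold change of RB1CC1KO over WT (x axis, points with ± SE) for each member (y axis, ordered by the EBSS value) in EBSS (red circles) and in full medium (blue squares); filled points passed an adjusted p of 0.05. In EBSS 15 members are filled right of 0 and NIP7 left of it (8 right and 3 left without scaling factors), whereas in full medium the filled points are NHP2 and NPM1.

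The response to EBSS itself differed between RB1CC1KO and WT in 3 members, each with a weaker decrease or an increase in RB1CC1KO: 3 members were higher and 0 lower, against 2.68% and 5.47% of all genes tested, and 8 and 2 passed an unadjusted p under 0.05 (DESeq2 called 3 and 0). For MYBBP1A, whose libraries are given above, the log2 fold change was -0.59 in RB1CC1KO and -1.12 in WT, a difference of 0.53 ± 0.10 (adjusted p = 0.00067). Both media entered this difference. In EBSS RB1CC1KO was above WT (171 ± 14 against 134 ± 14.8 CPM). In full medium RB1CC1KO was below WT without overlap (257 ± 12.6 against 291 ± 7.83 CPM), which was not called. RRP9, the U3 snoRNA-specific protein, had 73.9, 68.2 and 73.9 CPM in RB1CC1KO EBSS libraries, against 73, 65.1 and 74.8 CPM in RB1CC1KO full-medium libraries. In WT it had 54.6, 52.7 and 59.1 CPM in EBSS, against 77.7, 70 and 69.1 CPM in full medium. Its groups overlapped in RB1CC1KO and were apart in WT, with log2 fold changes of 0.02 ± 0.07 and -0.38 ± 0.07 and a difference of 0.40 ± 0.10 (adjusted p = 0.00954). RRP12 had 121, 112 and 117 CPM in RB1CC1KO EBSS libraries, against 112, 94.6 and 99.6 CPM in RB1CC1KO full-medium libraries. In WT it had 93.7, 84.3 and 102 CPM in EBSS, against 104, 107 and 112 CPM in full medium. The EBSS libraries lay at or above the full-medium ones in RB1CC1KO and below them in WT. It was thus higher in RB1CC1KO (0.20 ± 0.07, adjusted p = 0.0157) and lower in WT (-0.21 ± 0.07, adjusted p = 0.0116), with a difference of 0.41 ± 0.10 (adjusted p = 0.00909); each of these single-line calls was lost without 1 or more single libraries, WT EBSS replicate 2 in WT and RB1CC1KO full-medium replicate 2 or EBSS replicate 1 in RB1CC1KO, and the RB1CC1KO call also with upper-quartile scaling or none. The 3 differences kept their calls in every alternative run. No other member's response differed between RB1CC1KO and WT by this test, so members that passed in some lines and not in others, such as GAR1 (difference -0.21 ± 0.14, adjusted p = 0.418) and LAS1L (0.17 ± 0.08, adjusted p = 0.213), are not shown to respond differently.

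ATG7KO lay between the other lines for these genes without a called difference. MYBBP1A differed by 0.28 ± 0.10 between the ATG7KO and WT responses (adjusted p = 0.195), RRP9 by 0.18 ± 0.10 (0.421) and RRP12 by 0.15 ± 0.10 (0.527). No member's response differed between ATG7KO and WT by edgeR's quasi-likelihood test (0 of 37, against 1.05% of all genes tested; 4 higher and 1 lower at an unadjusted p under 0.05, and 0 by DESeq2) or between RB1CC1KO and ATG7KO (0 of 37, against 3.28% of all genes tested; 4 higher and 3 lower at an unadjusted p under 0.05, and 0 by DESeq2). The RB1CC1KO and ATG7KO comparisons with WT share the WT libraries.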

How the data were processed

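Directional, poly(A)-selected, single-end RNA-seq libraries were made from 3 lines in 2 media, per the labels' protocols. The authors deposited whole-number read counts per Ensembl gene, 1 table per library; STAR 2.4.2a, HTSeq 0.6.1p1, Picard, edgeR, DESeq2 and the build GRCh37 (hg19) are named in the submitters' processing notes. The annotation release and the strand setting of the counting are not stated there. HTSeq's summary lines, which name no gene (no feature 9.39% to 15.1% and ambiguous 2.08% to 2.42%, as shares of the reads), entered neither library sizes nor tests.

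Symbols came from a name table (52181 of 63677 identifiers paired). All 38 members matched, as did 168 of 172 listed other pathway genes; AATF, DDX52, NOL12 and ZNHIT3 did not. Exon numbers, lengths and overlaps came from GENCODE 29, used for gene structure only (52526 identifiers), and promoters from the RefSeq table of GRCh38.p14. CPM here are counts scaled to a common total of reads in genes with TMM factors.

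Tests were edgeR 4.0.16's quasi-likelihood tests (glmQLFit, glmQLFTest; R 4.3.3) on the deposited counts, after filterByExpr, with 1 mean for each of the 6 groups, robust estimation and Benjamini-Hochberg adjustment over all 15179 genes, in 10 comparisons. A gene was called at an adjusted p below 0.05. The common biological coefficient of variation was 6.72%. The method was tested on simulated counts. Alternatives were other scalings (DESeq2's size factors, upper quartile, none), no filter or at least 10 reads in every library, no robust estimation, a replicate block, a fit of only the groups compared, DESeq2 1.42.0, and leaving out each library in turn. The labels number replicates 1 to 3, but same-numbered libraries deviated together by correlations of only -0.08 to 0.22. The numbers were therefore not taken as pairs. The highest value was that of replicate 2 of RB1CC1KO in EBSS and full medium, where the best other number had -0.04. With the replicate block, all 37 members kept the same call in that comparison.

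All members are named, with ATG7, RB1CC1, MYC, MAX, MXD1, MXI1 and MNT, and from each list of other pathway genes the 3 with the smallest p in EBSS against full medium in WT; 1 gene that this rule names and 1 marker are not reported here. The members and lists were chosen with earlier results of these data known.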

Additional observations from a re-analysis of the deposited data

Results flagged for a closer look

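The response to EBSS of 3 members differed between RB1CC1KO and WT by the test of that difference itself (edgeR's quasi-likelihood interaction test, adjusted over all genes tested). The RB1CC1KO minus WT difference in log2 fold change was 0.53 ± 0.10 for MYBBP1A (adjusted p = 0.00067), 0.41 ± 0.10 for RRP12 (adjusted p = 0.00909) and 0.40 ± 0.10 for RRP9 (adjusted p = 0.00954). Over the alternatives run, the difference ranged from 0.45 to 0.62 for MYBBP1A, from 0.34 to 0.48 for RRP12 and from 0.35 to 0.47 for RRP9. RB1CC1 RNA was not lower in the libraries labelled RB1CC1KO, and the lines are 1 per genotype; the part of either in these differences was not tested.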

How the results depend on the processing

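In the EBSS comparisons of the 3 lines, the counts of members called lower stayed within 1.5 times of the reported ones in every alternative, whereas the counts called higher depended on scaling. With upper-quartile scaling and with no scaling factors, 1 and 1 members were higher in ATG7KO, 2 and 2 in RB1CC1KO, and 1 and 1 in WT. Under those 2 settings the ATG7KO values were 0 and -0.01 for UTP20, -0.16 and -0.17 for WDR43, and -0.15 and -0.16 for NOC2L; with no scaling factors the RB1CC1KO values were -0.13 for NOLC1, -0.17 for RRP9 and -0.17 for NOC2L. These turned the sign of values that were near 0 with TMM scaling or, for UTP20, passed narrowly. The median of all genes in EBSS was -0.17 to -0.22 there, and higher calls made up 33.8% to 37.4% of all calls.

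Between ATG7KO and WT in full medium, 1 member was lower under each of those 2 scalings, and 1 to 2 on leaving out single libraries. Between RB1CC1KO and WT in full medium, 1 member was higher with no scaling factors, 0 to 2 on leaving out single libraries, and 1 was lower with at least 10 reads in every library, with the replicate block and with only the groups compared. Between ATG7KO and WT in EBSS, 0 members were higher with DESeq2's size factors, no filter, at least 10 reads in every library, only the groups compared, or DESeq2 itself; leaving out single libraries gave 0 to 1 higher, 0 to 1 lower and 1235 to 1922 genes in all. Between RB1CC1KO and WT in EBSS, 8 were higher with no scaling factors, and 2, 3 and 2 were lower with upper-quartile scaling, no scaling factors and the replicate block (1 to 3 on leaving out single libraries).

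The count of all genes whose ATG7KO and WT responses differed was 281 with no filter and 305 with the replicate block, against 160 as reported, and 71 to 275 on leaving out single libraries. For RB1CC1KO and WT it was 788 to 1588 on leaving out single libraries; 1 member was then lower with no scaling factors and 0 to 1 on leaving out single libraries. For RB1CC1KO and ATG7KO it was 295 to 468, with 0 to 1 members higher. The replicate block changed none of the member counts in EBSS against full medium by over 1.5 times (23, 20 and 25 lower in ATG7KO, RB1CC1KO and WT). The cause of these shifts was not tested. With 3 libraries per group, small differences such as those of NPM1, NOC3L and NOP2 lie near the limit of what could be called, and ATG7KO EBSS replicate 3 is the shallowest library.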

Other observations

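Neighbouring systems were counted beside ribosome assembly. Of 21 genes of RNase MRP, which cuts the ribosomal precursor, and of the exosome, which trims it, 10 were lower and 6 higher in ATG7KO in EBSS, 10 and 5 in RB1CC1KO, and 10 and 6 in WT. Those called lower were 47.6% of the list in each line, against 30.6%, 33.3% and 32.1% of all genes tested, those called higher were 28.6%, 23.8% and 28.6%, against 32.3%, 31.9% and 32.4%, and the list's median log2 fold change was -0.10, -0.09 and -0.06. The 3 genes named below have the smallest p in WT and do not stand for the list. RPP25, a protein of RNase MRP and RNase P, had log2 fold changes of -2.35 ± 0.15 in ATG7KO, -2.83 ± 0.14 in RB1CC1KO and -2.35 ± 0.14 in WT. POP4, of the same enzymes, had -1.29 ± 0.11, -1.37 ± 0.10 and -1.22 ± 0.10, and the exosome protein EXOSC4 had -1.40 ± 0.12, -1.33 ± 0.11 and -1.32 ± 0.11.

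Of 22 genes of RNA polymerase III, which makes 5S ribosomal RNA and transfer RNAs, 9 were lower and 7 higher in ATG7KO, 10 and 6 in RB1CC1KO, and 11 and 5 in WT. The shares were 40.9% lower and 31.8% higher in ATG7KO, 45.5% and 27.3% in RB1CC1KO, and 50% and 22.7% in WT, with medians of -0.10, -0.04 and -0.13, against 30.6% and 32.3%, 33.3% and 31.9%, and 32.1% and 32.4% of all genes tested. POLR3G and POLR3B are named for their small p in WT and do not stand for the list. The subunit POLR3G had log2 fold changes of -1.35 ± 0.13 in ATG7KO, -1.31 ± 0.12 in RB1CC1KO and -1.21 ± 0.13 in WT, and POLR3B had -0.43 ± 0.08, -0.57 ± 0.07 and -0.57 ± 0.07.

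Of the 168 other pathway genes, the difference between the RB1CC1KO and WT responses was called higher in 8 and lower in 5, against 2.68% and 5.47% of all genes tested; 3 of the lower ones were in the RNase MRP and exosome list. NOL6, a small subunit factor among the 8, had a smaller decrease in RB1CC1KO (-1.29 ± 0.08) than in WT (-1.96 ± 0.08), a difference of 0.67 ± 0.12 (adjusted p = 0.000268 by edgeR's quasi-likelihood test).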
